A study of Homo sapiens with 12 samples.

Results

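The genes described here are 9 published targets of miR-17 and miR-19, microRNAs encoded as a cluster in MIR17HG: E2F1, E2F2, E2F3, CDKN1A, RBL2, ZBTB4, TGFBR2, STAT3 and ATXN1. They were found by name among the 61782 gene rows of each expression table, each in 1 row of its own that it shared with no other gene. They were chosen by their ratio of AGO over IgG in both cell populations, which had been seen in these data, so that this ratio is given below as a description. The RNA came from K562, a human erythroleukemia cell line, which according to the study's methods carried an inducible C/EBPα-ER. Cells were infected with lentiviral particles of pLV-control, the control vector, or pLV-miR-143, which drives overexpression of miR-143, and both populations were selected with Puromycin. From each population RNA was precipitated with an antibody against Argonaute (AGO) or with unspecific immunoglobulin (IgG), the background of the method. This gave the groups control_IgG, control_AGO, miR143_IgG and miR143_AGO with 3 samples each according to the labels, 12 in all.

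Each table holds the authors' average of a group in FPKM, which counts fragments relative to transcript length and to all mapped fragments, and values of single samples were not analysed here. The spread of replicates is therefore unknown, nothing could be tested, and every ratio below compares averages of 1 group each. Between 8393 rows (control_IgG) and 12937 rows (miR143_AGO) had a value above 0. The number of fragments is unknown. Total RNA was not analysed here, so that a larger amount of a transcript and a larger share of it bound to AGO cannot be told apart. The lowest values, multiplied by transcript length, lay 12.9 times higher in control_IgG than in miR143_AGO and 1.64 times higher in miR143_IgG. A low value in control_IgG may therefore rest on fewer fragments. A value of exactly 0 can be a failed estimate or a level too low to be seen, which cannot be told apart here. HPRT1, a gene that every cell uses, was listed at 0 in both control groups. It was at 0.279 FPKM in miR143_IgG and 0.910 FPKM in miR143_AGO. All 8 rows of erythroid K562 markers had values in both AGO groups, with medians from 31.1 to 52.3 FPKM over the 4 groups. Of 11 markers of other blood cells 6 were listed at 0 in all groups, and their summed level was between 26.8 and 74.0 FPKM, most of it from CD33, a myeloid surface protein, at 25.4 to 67.7 FPKM.

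MicroRNAs guide AGO proteins to messenger RNAs, mostly by pairing of their seed, the bases after the first one, with sites in the 3′ UTR. The transcript is then degraded or translated less, and RNA precipitated with AGO is enriched for transcripts in such complexes. The MIR17HG cluster, which encodes miR-17, miR-18a, miR-19, miR-20a and miR-92a and is known as oncogenic in blood malignancies, is transcribed under control of MYC and E2F factors, and its targets include inhibitors of the cell cycle and E2F genes themselves.

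The mature microRNAs (RefSeq, GRCh38.p14) are shown since their seeds define the sites searched in the 9 genes, with the seed, bases 2 to 8, in capitals. The first 4 share 1 seed, and miR-106b-5p and miR-93-5p come from another locus, in MCM7. Both miR-19 forms share another seed, and miR-143-3p is the microRNA overexpressed here.
miR-17-5p: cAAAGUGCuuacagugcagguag
miR-20a-5p: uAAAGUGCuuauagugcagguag
miR-106b-5p: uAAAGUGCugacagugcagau
miR-93-5p: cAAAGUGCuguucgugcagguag
miR-19a-3p: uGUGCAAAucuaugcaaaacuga
miR-19b-3p: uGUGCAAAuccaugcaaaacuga
miR-143-3p: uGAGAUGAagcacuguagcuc

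Sites were searched on the transcript strand in the longest 3′ UTR that GENCODE 29 (GRCh38) gives for a gene. For the miR-17 seed the letters were GCACTTTA (8mer), GCACTTT (7mer-m8) and CACTTTA (7mer-A1), and for the miR-19 seed TTTGCACA, TTTGCAC and TTGCACA. All 9 genes had at least 1 miR-17 site, and 4 of them (E2F2, ZBTB4, TGFBR2 and ATXN1) also had a miR-19 site. Among 15196 protein-coding genes with a 3′ UTR, 28.2% held a miR-17 site and 19.9% a miR-19 site. An 8mer was present in 4.69% for miR-17 and in 6.42% for miR-19. The genes are published targets, so their sites describe the choice. Sites of 6 genes are shown, to compare 8mers with 7mers among the genes with high and low ratios, as the 30 bases that end with the seed match, which is in capitals.
E2F1, miR-17 7mer-m8: gtgcgcgtgggggggctctaactGCACTTT
E2F3, miR-17 8mer: ggggtcaagacagatgacaccaGCACTTTA
CDKN1A, miR-17 7mer-m8: ttcatttgagaagtaaacagatgGCACTTT
RBL2, miR-17 8mer: gagtgaacctgtataagtggagGCACTTTA
ZBTB4, miR-17 8mer: attcccacaaatcttgtttctgGCACTTTA
ZBTB4, miR-19 8mer: ggatgggtgggtaagcccaggaTTTGCACA
TGFBR2, miR-17 8mer: tttacaatagccaataacatttGCACTTTA

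The capitals lie at chr20:33676339-33676345 (minus strand) for E2F1, chr6:20492254-20492261 (plus) for E2F3, chr6:36686268-36686274 (plus) for CDKN1A and chr16:53490934-53490941 (plus) for RBL2. For ZBTB4 they lie at chr17:7460073-7460080 and chr17:7460931-7460938 (minus) and for TGFBR2 at chr3:30691867-30691874 (plus). In TGFBR2 the bases in front of the miR-17 8mer complete a miR-19 7mer-m8, so that both sites overlap. ZBTB4 had the same overlap of a miR-19 and a miR-17 site at another place. E2F1, E2F2, CDKN1A and STAT3 had 7mers only, while E2F3, RBL2, ZBTB4 and TGFBR2 had an 8mer for miR-17. A miR-143 site was found in ATXN1 and in none of the other 8 genes.

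**Figure D1:**
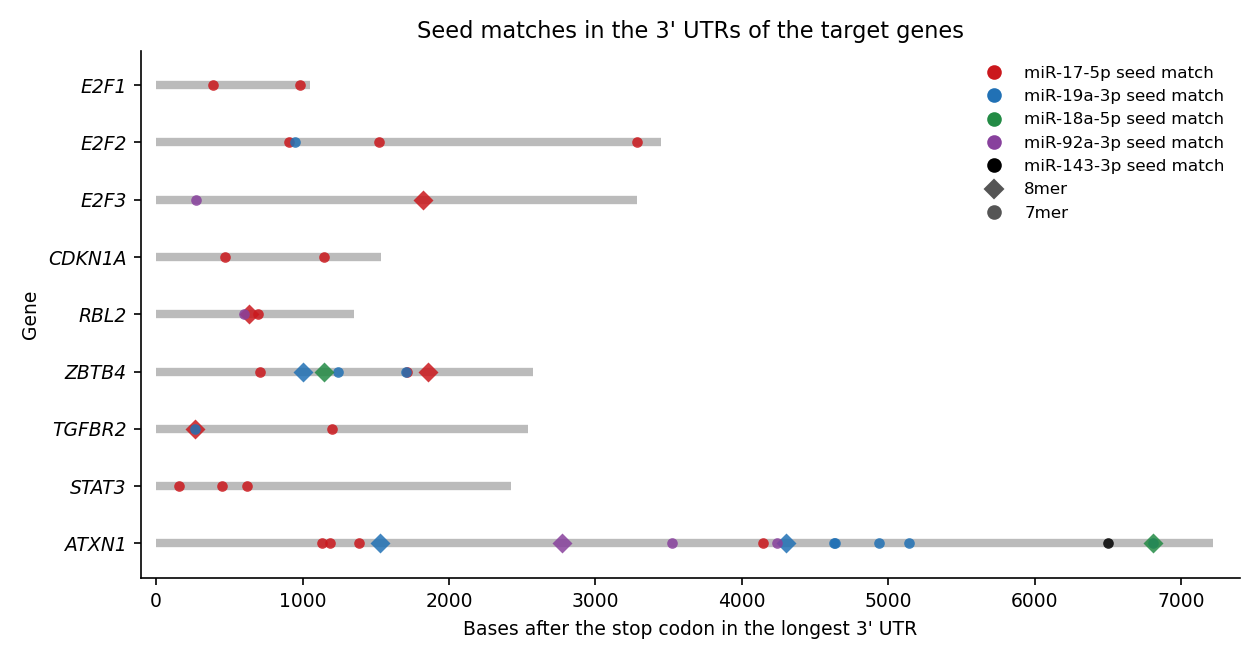
Seed matches of 5 microRNAs along the longest 3′ UTR of each gene. The x axis gives bases after the stop codon, grey bars the 3′ UTR, circles 7mers and diamonds 8mers. ATXN1, with 7217 bases the longest, held 4 miR-17 and 7 miR-19 sites, and ZBTB4 held 3 of each in 2574 bases.

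E2F1, E2F2 and E2F3 encode the activating E2F transcription factors, which switch on genes for DNA replication. All of them had higher levels in AGO than in IgG precipitates, in both cell populations. E2F1 (chr20:33675683-33686404, minus strand) stood at 1.03 FPKM in control_IgG and 34.0 FPKM in control_AGO, and at 0.793 and 26.1 FPKM in miR143_IgG and miR143_AGO. It was low in both IgG groups and among the higher of these genes in both AGO groups. The plain ratio of AGO over IgG was 32.9 in either population. On the scale used for all genes, log2 of FPKM + 1 over FPKM + 1, it was 4.11 in control and 3.92 in miR-143 cells. Of the protein-coding genes compared, 1.72% in control and 0.651% in miR-143 cells had a ratio at or above that of E2F1.

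E2F2 (chr1:23506430-23531220, minus strand) was at 4.29 FPKM in control_IgG and 21.5 FPKM in control_AGO, and at 3.51 and 18.9 FPKM in the respective groups of miR-143 cells. The plain ratios were 5.01 and 5.40, and the log2 ratios 2.09 and 2.15. E2F2 thus had a smaller ratio than E2F1, with a higher level in IgG. It carries 3 miR-17 sites and 1 miR-19 site in 3450 bases, against 2 miR-17 sites in 1049 bases for E2F1. E2F3 (chr6:20401906-20493715, plus strand) was at 4.28 and 7.84 FPKM in the IgG and AGO precipitates of control cells, and at 3.58 and 7.42 FPKM in those of miR-143 cells. The plain ratios were 1.83 and 2.07. Its log2 ratios of 0.74 and 0.88 on the FPKM + 1 scale did not reach 2-fold, but in miR-143 cells it passed 2-fold with pseudocounts of 0.1 (1.03) and 0.01 (1.05) and with the groups scaled to the same median (1.00) or upper quartile (1.24), the last also in control cells (1.21). E2F3 alone of the E2F genes has an 8mer. In each population the order of the ratios was E2F1, E2F2, E2F3.

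CDKN1A encodes p21, an inhibitor of cyclin-dependent kinases, and RBL2 encodes the pocket protein p130, which represses E2F targets in resting cells. The values of both genes differed. CDKN1A (chr6:36676460-36687339, plus strand) was at 10.2 FPKM in control_AGO and was listed at 0 in the matching IgG precipitate, and it was at 0.525 and 7.23 FPKM in the IgG and AGO precipitates of miR-143 cells. No fold is given for the control cells, and the plain ratio in miR-143 cells was 13.8. Its log2 ratio of 2.43 there is reduced by the added 1 FPKM. Its miR-17 sites lie in the longest 3′ UTR of 1539 bases, whereas the shortest annotated one of 124 bases holds none.

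RBL2 (chr16:53433977-53491649, plus strand) was at 10.7 and 11.8 FPKM in the IgG and AGO precipitates of control cells, and at 9.98 and 3.47 FPKM in those of miR-143 cells. The AGO precipitate of miR-143 cells was the low one, and the other groups were close to each other. The AGO over IgG log2 ratio was 0.13 in control and -1.29 in miR-143 cells, so that RBL2 was the only one of the 8 genes with values that was lower in AGO than in IgG, 2.87-fold on the plain scale. Of all coding genes compared, 45.9% in control and 75.9% in miR-143 cells stood at or above it. RBL2 carries 2 miR-17 sites, an 8mer and a 7mer-m8, close to each other in its 3′ UTR.

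ZBTB4, a zinc finger protein that binds methylated DNA and represses transcription, had the highest ratio in miR-143 cells of the 7 genes with values in both precipitates there. ZBTB4 (chr17:7459366-7484263, minus strand) was at 2.09 FPKM in control_IgG and 40.0 FPKM in control_AGO, and at 0.421 and 26.5 FPKM in miR143_IgG and miR143_AGO. Both AGO values lay far above both IgG values. The plain ratio was 19.1 in control and 62.9 in miR-143 cells, and the log2 ratio 3.73 and 4.27. The larger plain ratio in miR-143 cells goes with a lower IgG value, while the AGO value was also lower there. Only 0.353% of the coding genes in miR-143 cells were at or above this ratio. Apart from ATXN1, ZBTB4 holds the most sites, 6 for miR-17 and miR-19, and also an 8mer for miR-18a-5p.

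TGFBR2 and STAT3 act in signalling from the cell surface. TGFBR2 (chr3:30606502-30694142, plus strand), the type II receptor for TGF-β, was the lowest of the 8 genes in both AGO groups. It was at 1.36 FPKM in control_IgG and 5.50 FPKM in control_AGO, a plain ratio of 4.06 and a log2 ratio of 1.46. In miR-143 cells it was listed at 0 in IgG and was at 2.40 FPKM in AGO, so no fold is given. STAT3 (chr17:42313324-42388568, minus strand), a transcription factor activated by cytokine receptors, had the highest FPKM of the 9 genes in both AGO groups. It was at 4.92 FPKM in control_IgG and 57.0 FPKM in control_AGO, and at 14.2 and 63.3 FPKM in miR143_IgG and miR143_AGO. The AGO values were alike and the IgG values were not. The plain ratio was therefore 11.6 in control and 4.47 in miR-143 cells, and the log2 ratio 3.29 and 2.08. Of its 3 miR-17 sites 1 remains in the shortest annotated 3′ UTR of 186 bases.

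ATXN1 (chr6:16299112-16761491, minus strand), the gene mutated in spinocerebellar ataxia type 1, was listed at 0 in all 4 groups. It has the most sites of the 9 genes, 11 for miR-17 and miR-19, and no ratio can be given for it. Of 15553 rows of 1 protein-coding gene 5736 were listed at 0 throughout. Whether ATXN1 is silent in these cells or was missed by the estimate cannot be told apart. Of its protein partners, the repressor CIC was higher in AGO precipitates with log2 ratios of 1.71 and 2.63. The row of ATXN1L, joined with IST1, was lower at -0.74 and -0.80.

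**Figure D2:**
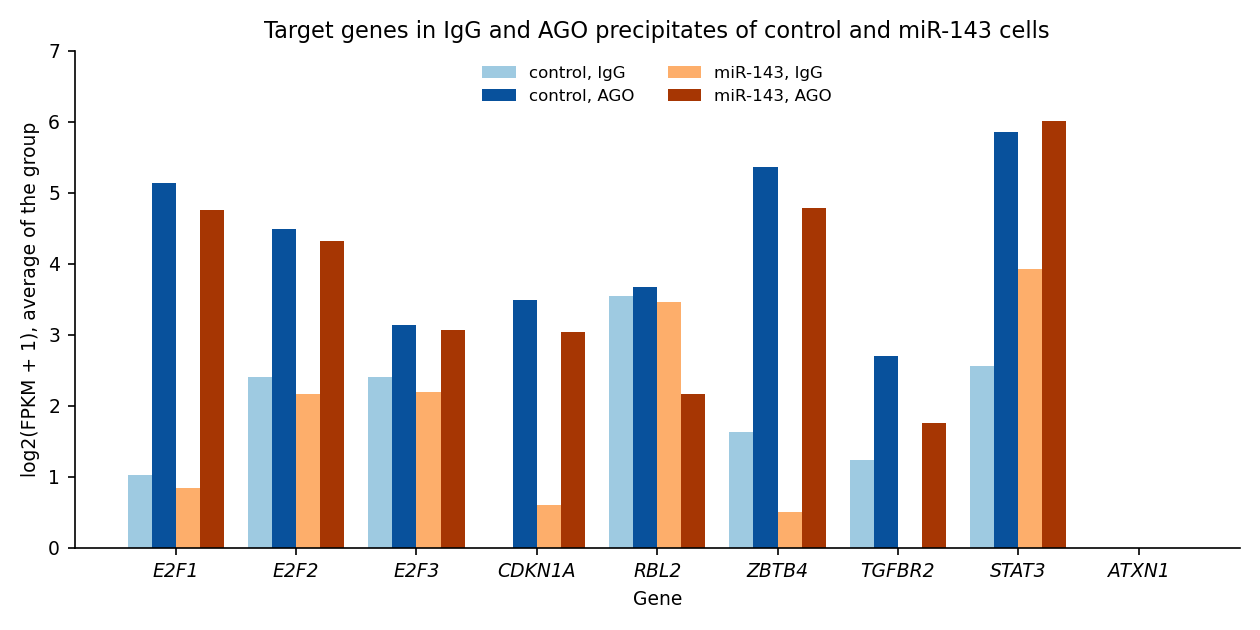
Levels of the 9 genes in the 4 groups. The y axis gives log2 of the authors' average FPKM + 1, and each bar is 1 group without error, since no replicate values were at hand. Both AGO bars exceed both IgG bars for E2F1, E2F2, E2F3, CDKN1A, ZBTB4, TGFBR2 and STAT3, RBL2 is lowest in miR143_AGO, and ATXN1 is listed at 0 in every group.

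In control cells 6 of the 8 genes with values were at least 2-fold higher in AGO (E2F1, E2F2, CDKN1A, ZBTB4, TGFBR2 and STAT3) and none was 2-fold lower. Of all rows compared 34.5% were 2-fold higher, and of the coding rows 33.8% were higher and 34.1% lower. On the FPKM + 1 scale E2F1, CDKN1A and ZBTB4 passed 10-fold, against 3.97% of the coding rows, although CDKN1A does so against an IgG value of 0. STAT3, with a plain ratio of 11.6, was just short of 10-fold on this scale, and it passed with either smaller pseudocount and either scaling, which gave 4 genes. In miR-143 cells 6 genes were 2-fold higher and RBL2 was 2-fold lower, with 26.6% of all rows and 26.3% of the coding rows 2-fold higher and 30.7% of the coding rows 2-fold lower. E2F1 and ZBTB4 passed 10-fold there on the FPKM + 1 scale, against 1.53% of the coding rows. CDKN1A passed 10-fold on the plain scale (13.8), and with pseudocounts of 0.1 and 0.01 the number was 4, TGFBR2 with its IgG value of 0 included. The 6 genes were the same in both populations, and 15.0% of 6340 coding rows compared in both were 2-fold higher in both. Of the 6 genes, CDKN1A in control cells and TGFBR2 in miR-143 cells were counted against an IgG value of 0. Since the genes were chosen on this contrast, nothing is read from these shares.

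The 8 genes had a median log2 AGO over IgG ratio of 2.69 in control cells, or 2.09 for the 7 genes without a value of 0, against -0.14 over 6958 coding rows. It was 2.11 in miR-143 cells, or 2.15 without the gene at 0, against -0.15 over 7373 coding rows. Scaling the groups to the same median raised the median of all rows by 0.16 in control and 0.15 in miR-143 cells, and scaling to the same upper quartile by 0.57 and 0.42. With the latter RBL2 in miR-143 cells stood at -0.94 and was no longer 2-fold lower. The IgG values of some genes rest on little: in control_IgG, E2F1 was 3.68 times and TGFBR2 8.88 times the product of FPKM and length at the low edge of the group. In miR143_IgG, CDKN1A was 13.3 times and E2F1 22.1 times this edge, whereas in the AGO groups the lowest of the 8 genes, TGFBR2 in miR143_AGO, was at 203 times the edge.

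**Figure D3:**
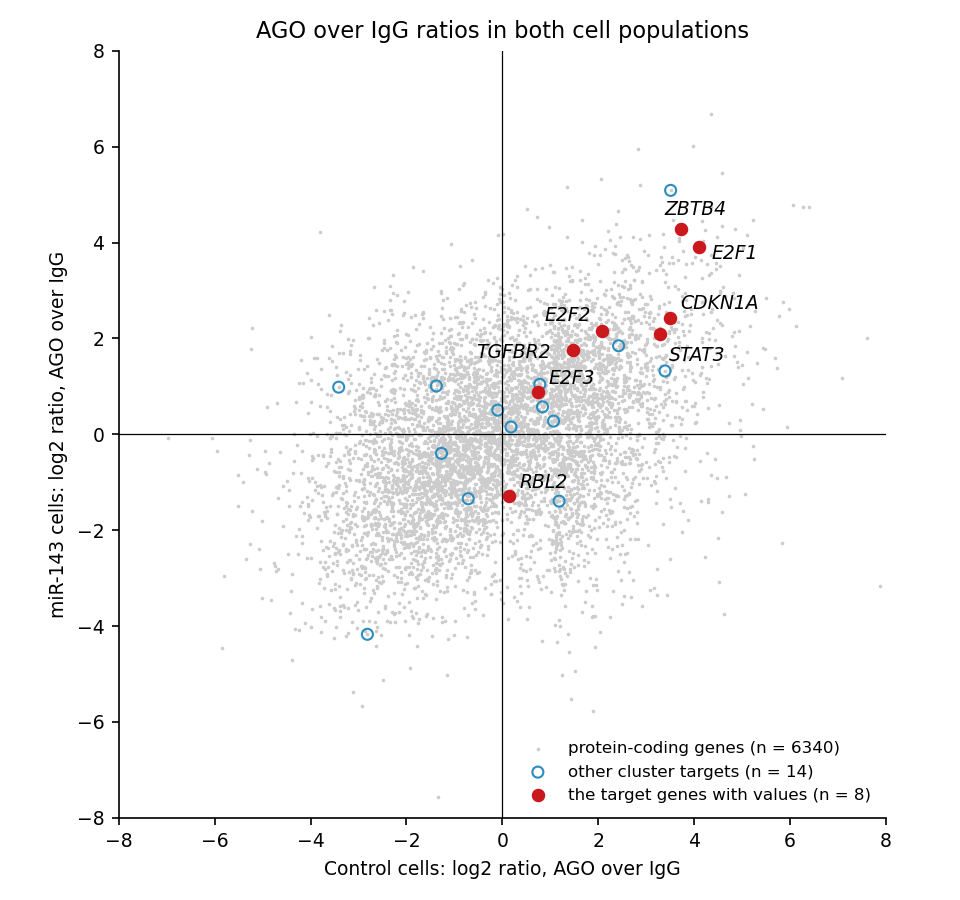
AGO over IgG ratios on the log2 scale, in control cells (x axis) against miR-143 cells (y axis). Grey points are 6340 coding genes, open blue circles 14 other targets of the cluster compared in both populations, and red points the 8 genes with values, of which RBL2 alone lies below 0 on the y axis.

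The comparison of the AGO precipitates with each other describes the levels of these transcripts in miR-143 against control cells. Most of them were a little lower in miR143_AGO than in control_AGO. RBL2 was at 11.8 FPKM in control_AGO and 3.47 FPKM in miR143_AGO, a log2 ratio of -1.52 and 3.40-fold lower on the plain scale, and was the only gene past 2-fold on the FPKM + 1 scale. TGFBR2 came next with -0.93, at 5.50 and 2.40 FPKM, which is 2.29-fold lower on the plain scale, and it also passed 2-fold with either smaller pseudocount and either scaling. ZBTB4 followed with -0.58. E2F1 (-0.37), CDKN1A (-0.45), E2F2 (-0.17) and E2F3 (-0.07) were closer to 0. STAT3 was at 0.15, and with the groups scaled to the same median it turned to -0.11. None of these 8 genes holds a miR-143 site in its longest 3′ UTR. Of 6878 coding rows 12.6% were 2-fold lower and 15.4% were 2-fold higher in miR143_AGO. Their median was 0.16, against -0.41 for the 8 genes. The AGO values are part of the ratios by which these genes were chosen, so nothing is read from this difference. Scaling to the same median lowered the median of all rows by 0.24 on the log2 scale (shift of -0.24).

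The IgG precipitates differed more between the populations than the AGO precipitates. Of 7057 coding rows 60.1% differed at least 2-fold between miR143_IgG and control_IgG. The low edge of control_IgG was 12.9 times that of miR143_AGO, against 1.64 times for miR143_IgG and 1.09 times for control_AGO. Its part in the 60.1% was not tested. Among the 7 genes compared, STAT3 was 2-fold higher in miR143_IgG with a log2 ratio of 1.36, and ZBTB4 was 2-fold lower (-1.12). TGFBR2 was at 1.36 FPKM in control_IgG and listed at 0 in miR143_IgG, and no fold is given. The E2F genes and RBL2 were between -0.23 and -0.09. The difference of the AGO over IgG ratios, miR-143 minus control cells, was -0.19 for E2F1, 0.06 for E2F2 and 0.14 for E2F3. It was 0.54 for ZBTB4, -1.21 for STAT3 and -1.43 for RBL2, and none is given for CDKN1A and TGFBR2, each at 0 in 1 IgG group. Over 3841 coding rows of 1 FPKM or more in all groups, which E2F1 and ZBTB4 did not reach in miR143_IgG, the median size of this difference, regardless of sign, was 1.00. The difference for STAT3 goes with its IgG value and that for RBL2 with its AGO value.

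Further targets of the cluster lay on both sides of 0. Of 23 other published targets found, 2 of them in rows joined with other genes, 17 were compared in control cells, with a median log2 ratio of 0.18 (0.04 for the 14 without a value of 0), 6 of them 2-fold higher and 5 lower, against 33.8% and 34.1% of the coding rows. In miR-143 cells 16 were compared, with a median of 0.39, 5 higher and 3 lower, against 26.3% and 30.7% of the coding rows. SOCS1, which inhibits cytokine signalling, was at 14.2 and 172 FPKM in the IgG and AGO precipitates of control cells and at 2.86 and 130 FPKM in those of miR-143 cells, with log2 ratios of 3.51 and 5.09. BCL2L11, the pro-apoptotic BIM, had log2 ratios of 3.39 and 1.32. PRKAA1, a catalytic subunit of AMP-activated kinase, was lower in AGO in both populations (-2.81 and -4.17). NCOA3, a nuclear receptor coactivator, was at -3.41 in control and 0.98 in miR-143 cells, as its IgG value was 144 FPKM in control_IgG and 3.84 FPKM in miR143_IgG. The deubiquitinase CYLD was at 10.9 FPKM in control_IgG and listed at 0 in control_AGO.

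The partners of the E2F genes also lay on both sides of 0. The lists overlap, since RB1 and RBL1 also belong to the other published targets above. Of the E2F and RB network 10 genes were compared in control cells, 5 of them 2-fold higher and 3 lower (median 1.01, or 0.27 for the 6 without a value of 0), and 12 in miR-143 cells, 4 higher and 4 lower (median -0.21). Of the coding rows 33.8% were higher and 34.1% lower in control cells, and 26.3% and 30.7% in miR-143 cells. TFDP1, the dimerization partner of E2F factors, was lower in AGO at -2.07 and -1.77. The kinase inhibitors CDKN1C (2.55 and 1.78) and CDKN1B (0.99 and 2.17) were higher, the former being listed at 0 in control_IgG. E2F5 and CDKN2D were listed at 0 in control_IgG and stood at 20.8 and 15.1 FPKM in miR143_IgG, and their log2 ratios in miR-143 cells were -2.30 and -3.36.

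In the TGF-β receptor and SMAD list 4 of 9 genes were 2-fold higher and 2 lower in control cells (median 0.97, or 0.58 for the 8 without a value of 0), and 4 of 10 were higher and 3 lower in miR-143 cells (median 0.09), beside the same 33.8% and 34.1%, and 26.3% and 30.7%, of the coding rows. SMAD7, the inhibitory SMAD, was at 0.284 and 27.96 FPKM in the IgG and AGO precipitates of control cells, and at 15.9 and 2.77 FPKM in those of miR-143 cells, so that its log2 ratio went from 4.50 to -2.16. SMAD2 was at -2.24 and 1.17, and SMAD3 at 0.97 and 1.49. SMAD4, in a row joined with ELAC1, was at -1.38 and 1.01. It is counted as lower in control and as higher in miR-143 cells. SMAD4 and BMPR2 also belong to the other published targets above. The receptor BMPR1A, listed at 0 in control_IgG, was at 40.3 FPKM in miR143_IgG and had a log2 ratio of -3.38 in miR-143 cells. Of the relatives of STAT3, STAT2 had log2 ratios of 3.43 and 1.95 and was listed at 0 in both IgG groups. STAT5B was at -1.47 and -0.59. Of the methyl-binding relatives of ZBTB4, 1 of 2 could be compared, in miR-143 cells only (1.09).

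The source of the microRNAs was also measured in part. MIR17HG, the host transcript of the cluster, was at 5.05 and 0.391 FPKM in the IgG and AGO precipitates of control cells and at 10.5 and 0.976 FPKM in those of miR-143 cells, with log2 ratios of -2.12 and -2.55. This precursor was thus higher in IgG, the opposite of E2F1 or ZBTB4. MCM7, the replication helicase gene that hosts miR-106b and miR-93, was between 64.0 and 103 FPKM, with ratios of 0.68 and 0.07. Levels of the mature microRNAs were not analysed here.

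Across all genes, those with a miR-17 or miR-19 site had higher AGO over IgG ratios than those without. Genes with a miR-17 site exceeded genes without in their median log2 ratio by 0.35 in control cells (2196 genes with a site) and by 0.23 in miR-143 cells (2328 genes). For miR-19 sites the difference was 0.46 and 0.37. For genes with an 8mer, as in E2F3, RBL2, ZBTB4 and TGFBR2, the difference was 0.96 and 0.78 for miR-17, and 0.76 and 0.69 for miR-19. The other seeds were searched for comparison. Of the cluster's other seeds, an 8mer of miR-18a-5p, in 136 and 146 genes, gave 0.72 and 0.24. One of miR-92a-3p gave 0.69 and 0.88, the latter above miR-17 in miR-143 cells. An 8mer of miR-143-3p gave 0.23 and 0.24, and one of miR-122-5p, a liver microRNA, gave 0.47 and 0.30. With any site, however, miR-122-5p gave 0.34 and 0.17, close to miR-17. Any site of miR-18a-5p gave 0.32 and 0.21, of miR-92a-3p 0.16 and 0.28, and of miR-143-3p 0.06 and 0.16.

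Genes with sites have longer 3′ UTRs, with a median of 2756 bases for miR-17 sites against 943 bases without in control cells. Genes with a miR-17 8mer, 401 in control cells, had a median of 3159 bases. The 8mer differences were not split by length, and the bins below compare genes with any site. Within 4 bins of 3′ UTR length with equal numbers of genes the miR-17 difference in control cells was 0.72 in the bin of the shortest, 0.20 and 0.34 in the middle bins and 0.044 in that of the longest. For miR-19 it was 1.82, 0.41, 0.44 and 0.24. For miR-122-5p it was 0.34, 0.27, 0.26 and 0.16, larger than for miR-17 in bins 2 and 4. By number of miR-17 and miR-19 sites the median log2 ratio in control cells was -0.30 for genes with none, 0.10 with 1, 0.22 with 2 and 0.21 with 3 or more. In miR-143 cells these medians were -0.28, -0.02, 0.09 and 0.18. The median length of the 3′ UTR rose too, from 784.5 bases with no site to 4776.5 with 3 or more in control cells. In miR-143 cells it rose from 798 to 4714 bases. The medians by number of sites were not split by length. The 8 genes were chosen by this ratio, so nothing is read from their numbers of sites. E2F1 and RBL2 have 2 sites each and had log2 ratios of 4.11 and 0.13 in control cells, and ZBTB4 with 6 sites was at 3.73.

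**Figure D4:**
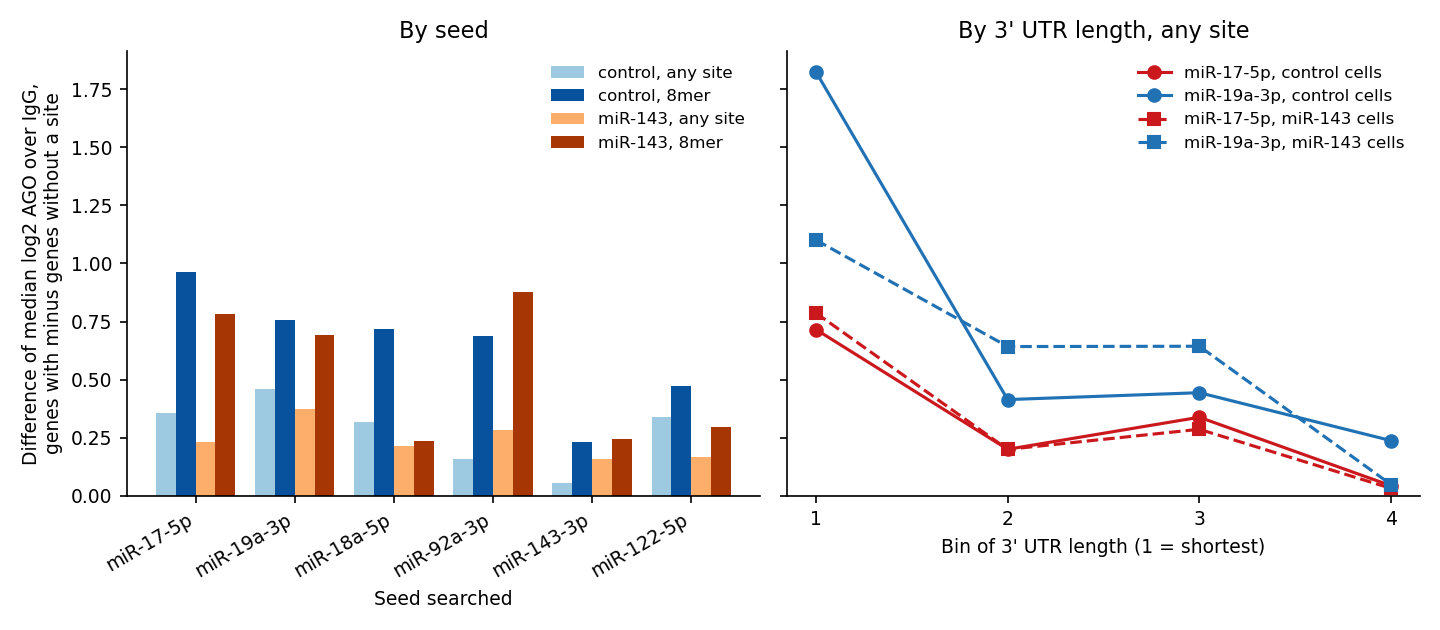
Difference of the median log2 AGO over IgG ratio between genes with and genes without a site (y axis), by seed for any site and for 8mers (left) and by bin of 3′ UTR length for any site (right, with 1 the shortest), in both cell populations. The bars are differences of medians over genes and carry no error. The 8mers of miR-17 stand at 0.96 and 0.78, and in bin 4, the longest, the miR-17 lines are at 0.044 and 0.033.

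For each gene the coding gene with the most similar values was sought, as the smallest largest difference in log2(FPKM + 1) over the 4 groups. TGFBR2 was nearest to SHC2 (largest difference 0.05), E2F3 to DYNC1H1 (0.15), ZBTB4 to TEAD3 (0.18) and CDKN1A to GGCX (0.22). RBL2 was nearest to SMIM3 (0.29), E2F2 to MGAT3 (0.32), STAT3 to BCAT2 (0.33) and E2F1 to MYCL (0.41). With 4 values per gene, this likeness is a description of the precipitates.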

How the data were processed

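RNA immunoprecipitates of K562 cells were sequenced by the authors (rRNA removal, random priming and paired-end reads per the labels; a TruSeq kit per the study's methods). The authors used TopHat and Cufflinks and deposited 4 tables, 1 per group, with the average FPKM of each gene row. The processing notes name hg38, and program versions and annotation are not given in the sources used here. No column of other samples was found. FPKM values give no fragment counts, and a test on replicates, foreseen in the design, could not be run on averages.

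Ratios were computed as log2((FPKM + 1)/(FPKM + 1)) over rows of at least 1 FPKM in 1 of the 2 groups, with thresholds of 2-fold and 10-fold. Such ratios understate changes of low genes. The low edge of a group was the 10th lowest product of FPKM and transcript length over genes with 1 transcript. Of 59642 rows with 1 name 36227 were matched by symbol to GENCODE 29, whose annotation may differ from the authors'. Sites were searched in the longest 3′ UTR for 6 seeds. The search was tested on simulated sequences. Genes named are the 9 targets, listed genes at least 10-fold different in a comparison, up to 4 per list with the highest and lowest ratio among rows of 1 FPKM in both AGO groups, and the nearest coding row of each target. Genes and lists were chosen with earlier results of these data known. Alternatives were pseudocounts of 0.1 and 0.01, a mean of at least 5 FPKM, no filter, 2 scalings, joined rows left out, rows of 1 name summed, the shortest 3′ UTR, 8mers, 2 or more sites and 4 length bins. A few listed items are not reported here. Python 3.11.15, pandas 2.3.3, numpy 2.4.6 and matplotlib 3.10.9 were used.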

Additional observations from a re-analysis of the deposited data

How the results depend on the processing

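No paired analysis was possible because each table holds 1 average per group and its column carries no replicate number, and for the same reason no replicate could be left out. Of 108 alternatives for counts, medians and seed differences 81 left the value within the limits used (1.5 times) and none reversed a called value. The median log2 AGO over IgG ratio in control cells (2.69) was 2.09 with no filter and 3.29 with a mean of at least 5 FPKM, and that in miR-143 cells (2.11) was 2.98 and 3.09 with pseudocounts of 0.1 and 0.01. Between the AGO precipitates 2 genes in place of 1 were 2-fold lower with either pseudocount and with either scaling. Between the IgG precipitates the median (-0.21) was 0.63 with a mean of at least 5 FPKM, where only 2 genes were left. The number of genes 2-fold higher in AGO was 5 to 7 in control and 4 to 7 in miR-143 cells. Seed differences depended on site class and 3′ UTR length. For miR-17 in control cells (0.35) they were 0.96 with 8mers and 0.72, 0.20 and 0.044 in length bins 1, 2 and 4 (1 the shortest), and in miR-143 cells (0.23) 0.56 with the shortest 3′ UTR, 0.78 with 8mers and 0.79 and 0.033 in bins 1 and 4. For miR-19 in control cells (0.46) they were 0.76 with 8mers and 1.82 and 0.24 in bins 1 and 4, and in miR-143 cells (0.37) 0.63 with the shortest 3′ UTR, 0.69 with 8mers, 0.58 with 2 or more sites and 1.10, 0.64, 0.64 and 0.049 in bins 1 to 4. The cause was not tested. Ratios against an IgG value near the low edge, as for E2F1 in control_IgG, rest on an unknown number of fragments and are uncertain.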
